A study of Mus musculus with 2 samples.

Results

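Ly6c2 Ccr2 classical monocytes are the blood-borne monocytes that enter inflamed tissue and tumours, and here they were described in 2 droplet single-cell RNA-seq libraries of CD45+ cells sorted from B16-F10 melanomas, a transplanted mouse tumour line. The DGAT1-KO library came from tumours grown from B16-F10 cells without DGAT1, an enzyme that joins an acyl group to diacylglycerol to make triglyceride, and the WT library from tumours of unedited B16-F10 cells. In both groups the tumours were taken on day 14 after injection, 3 per group by the labels, and digested with collagenase and DNase for 45 minutes. The edit is in the implanted melanoma cells, so the monocytes of both libraries are unedited host cells, and no file maps cells to tumours. Each group is therefore 1 library, no test between groups was possible, and every interval below is an exact 95% interval that covers counting error only.

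Monocytes were chosen by measured UMIs (unique molecular identifiers, which count captured RNA molecules). A barcode needed at least 1000 UMIs, at least 300 genes, at most 10% mitochondrial UMIs, at least 5 UMIs of Ly6c2, Ccr2 and Vcan together and at least 5 of Lyz2. It could hold fewer than 10 UMIs of C1qa, C1qb and C1qc per 10000, fewer than 5 of Inhba, Egln3, Pdpn and Slc7a2, and at most 1 of Ace, Treml4 and Adgre4, at most 1 of Cd209a, at most 1 of Cd3d, Cd3e and Cd3g and at most 1 of Csf3r, Cxcr2 and Retnlg. It could hold 0 of Siglech and 0 of Xcr1 and Clec9a. Of 20216 barcodes that passed the depth and mitochondrial limits, 978 met the rule, 653 of 11238 in the DGAT1-KO library and 325 of 8978 in the WT library. No barcode of the 978 was present in both libraries, while 25 of the 20216 were.

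Classical monocytes are made in the bone marrow from granulocyte-monocyte precursors and leave it through the chemokine receptor CCR2. In tissue they lose Ly6C and can turn into macrophages or into cells that present antigen on MHC class II, under cues that include CSF1, interferons, hypoxia and lipids. In tumours they are a source of macrophages and can either restrain or support T cells.

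The label was checked against its markers. Chil3, a chitinase-like lectin of inflammatory monocytes that the rule did not use, was at 432 CPM (UMIs of the gene per 1000000 UMIs of the class) in DGAT1-KO monocytes and 345 CPM in WT monocytes, against 60.1 and 23.7 CPM in C1q macrophages of the DGAT1-KO and WT libraries. C1q macrophages are barcodes that meet the rule apart from C1q, which is at least 10 per 10000, and whatever their Ly6c2, Ccr2 and Vcan. Chil3 was not particular to classical monocytes, since non-classical monocytes, chosen by at least 3 UMIs of Ace, Treml4 and Adgre4, had 435 CPM in the DGAT1-KO library and 245 CPM in the WT library. Plac8, Ms4a4c and F13a1, further classical monocyte genes, were at 2681, 935 and 370 CPM in DGAT1-KO monocytes and at 3073, 1073 and 470 CPM in WT monocytes. In C1q macrophages they were at 622, 398 and 351 CPM in the DGAT1-KO library and at 378, 331 and 339 CPM in the WT library. All 4 of these markers outside the rule were thus higher in classical monocytes than in C1q macrophages in both libraries, F13a1 by the least. After thinning to 5000 UMIs, 45.1% of DGAT1-KO and 41.9% of WT monocytes held a Chil3 UMI, against 0.514% of DGAT1-KO and 0.344% of WT T cells at that depth.

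Markers of other cells were mostly low, apart from macrophage genes, so the monocytes were not shown to be clear of macrophage RNA. Apoe was at 621 CPM in DGAT1-KO and 1186 CPM in WT monocytes. In thinned monocytes Mrc1 was at 179 CPM in the DGAT1-KO library and 232 CPM in the WT library. Adgre1 was at 151 and 160 CPM there, and Trem2 at 36.5 and 62.0 CPM. Summed over each list, T cell markers came to 64.6 CPM in DGAT1-KO and 55.1 CPM in WT monocytes, B cell markers to 3.57 and 5.34 CPM, mast cell and basophil markers to 0.143 and 0.485 CPM and neutrophil markers to 58.9 and 87.6 CPM. NK cell markers came to 185 CPM in DGAT1-KO and 158 CPM in WT monocytes, dendritic cell markers to 40.9 and 79.1 CPM, marrow progenitor markers to 20.3 and 23.3 CPM and fibroblast markers to 3.57 and 31.8 CPM. Non-classical monocyte markers, some of them limited by the rule, came to 286 CPM in DGAT1-KO and 285 CPM in WT monocytes. Fcer1a, Ms4a2 and Gata2 were at 0 UMIs in both libraries, as were Xcr1, Clec9a and Siglech by the rule. Melanoma markers were a further exception, at 815 CPM in DGAT1-KO and 1508 CPM in WT monocytes over 8 genes. Dct, a melanin synthesis enzyme, was found in 147 of 653 DGAT1-KO monocytes and 188 of 325 WT monocytes, with 87.0% of its DGAT1-KO and 87.7% of its WT UMIs in 10 cells. Erythroid genes came to 6.01 CPM in DGAT1-KO and 1191 CPM in WT monocytes, over 5 genes. The WT level came from few cells, since only 2 of 325 WT monocytes, and 0 DGAT1-KO monocytes, held 5 or more erythroid UMIs. At least 5 UMIs of a set of T, NK, B, melanoma, fibroblast or erythroid markers were present in 45 DGAT1-KO monocytes (6.89%) and 92 WT monocytes (28.3%). This set did not hold all 8 melanoma genes above. At least 5 UMIs of those 8 were present in 252 DGAT1-KO and 175 WT monocytes. The 45 and 92 monocytes are called below those that held RNA of other classes. Values without them are given for most lists, and their part in the results was not tested further.

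The libraries held 202946827 UMIs (DGAT1-KO) and 235652476 UMIs (WT). Monocytes had medians of 9552 UMIs and 3061 genes in the DGAT1-KO library and 11230 UMIs and 3218 genes in the WT library, and summed to 6993487 and 4119687 UMIs. The median mitochondrial share was 3.23% in DGAT1-KO and 2.73% in WT monocytes. The share of free RNA in cells, estimated with barcodes of 1 to 100 UMIs, was 3.05% in the DGAT1-KO library and 3.45% in the WT library. Dgat1 itself was at 13.7 CPM in DGAT1-KO and 13.1 CPM in WT monocytes, which does not check the labels because these are host cells.

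The first comparison was of numbers, and since the rule chose the cells, the shares are a description. Classical monocytes made up 5.81% (5.39 to 6.26) of kept DGAT1-KO barcodes and 3.62% (3.24 to 4.03) of kept WT barcodes, which is a ratio of 1.61 (1.40 to 1.84). C1q macrophages had the opposite order, with 4.91% of DGAT1-KO and 8.89% of WT barcodes and a ratio of 0.553 (0.495 to 0.617). There were 1.18 classical monocytes per C1q macrophage in the DGAT1-KO library and 0.407 in the WT library, or 2.90 times as many (2.44 to 3.46). Non-classical monocytes, which patrol vessels, had a share ratio of 1.56 (1.22 to 2.02), and phagocytes with at least 5 UMIs of Inhba, Egln3, Pdpn and Slc7a2 had one of 1.60 (1.25 to 2.05). T cells, with at least 3 UMIs of Cd3 genes and fewer than 5 of Lyz2, had one of 1.13 (1.072 to 1.195). The higher share of classical monocytes was thus shared by the non-classical monocytes and the Inhba phagocytes, with overlapping intervals. Among barcodes with at least 5 Lyz2 UMIs and at most 1 Cd3 UMI the share of classical monocytes was 17.0% in the DGAT1-KO library and 9.42% in the WT library. A sort of CD45+ cells gives shares and not numbers per tumour, so more monocytes and fewer other cells cannot be told apart.

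Without the C1q limit, 943 of 11238 DGAT1-KO and 594 of 8978 WT barcodes met the rule, so the shares lay closer together than with it. Just inside, at 8 to 10 per 10000, lay 21 DGAT1-KO and 6 WT barcodes, and just outside, at 10 to 12 per 10000, lay 15 DGAT1-KO and 3 WT barcodes. The limit on Csf3r, Cxcr2 and Retnlg had 279 DGAT1-KO and 119 WT barcodes just inside at 1 UMI and 167 DGAT1-KO and 70 WT barcodes just outside at 2. At the Ly6c2, Ccr2 and Vcan limit, 18 DGAT1-KO and 18 WT barcodes lay inside at 5 UMIs and 19 DGAT1-KO and 17 WT barcodes outside at 4.

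**Figure D1:**
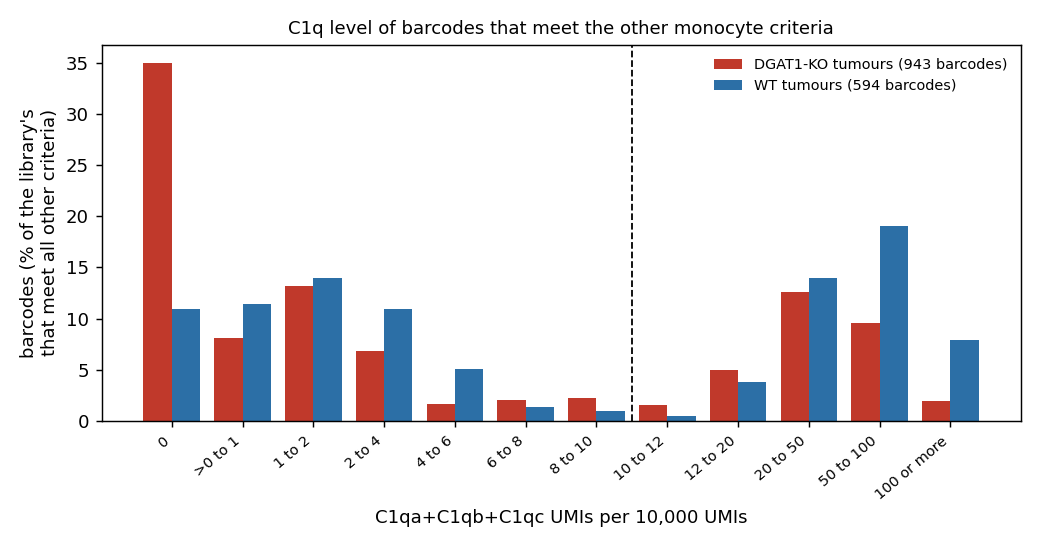
Share of barcodes (vertical axis, percent of each library's barcodes that meet every other monocyte criterion) by C1qa, C1qb and C1qc UMIs per 10000 (horizontal axis, classes of unequal width). Bars are DGAT1-KO (943 barcodes) and WT (594 barcodes), and the dashed line is the limit of 10, with 21 DGAT1-KO and 6 WT barcodes in the class below it and 15 and 3 in the class above it. Classes to the right of 12 are wider, so bar heights there cannot be read as density.

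C1q UMIs within monocytes were near the level that free RNA gives in the WT library. After thinning to 5000 UMIs, 33.8% of DGAT1-KO and 57.1% of WT monocytes held a C1q UMI, and so did 16.8% of DGAT1-KO and 36.6% of WT T cells, which do not make C1q. The mean was 0.614 C1q UMIs per DGAT1-KO monocyte, with 0.263 expected from free RNA, and 0.941 per WT monocyte, with 0.829 expected. The difference in C1q between the monocytes of the libraries is therefore not read as expression.

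Gene levels were compared over 8157 genes with at least 100 UMIs in both libraries together. In DGAT1-KO monocytes, 514 genes (6.3%) lay 1.5-fold or more above WT monocytes and 317 (3.89%) lay 1.5-fold or more below them, and the median log2 ratio was 0.06. Of these genes 61.9% were the higher ones. Scaling by the median ratio gave 386 higher and 403 lower (48.9% higher), and centring on gene length, described below, gave 45.6% higher. Counts of list members past 1.5-fold are read beside the background of 6.3% and 3.89%.

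Genes that mark the turn of a monocyte into a macrophage were lower in DGAT1-KO monocytes. Of 33 listed genes of macrophage maturation 28 entered, and 13 of these were lower by 1.5-fold or more and 0 were higher by that much, with a median log2 ratio of -0.47. Ms4a7, a membrane protein of tissue macrophages (chromosome 19, 11321039 to 11336146, minus strand, mm10), was at 30.2 CPM in DGAT1-KO monocytes (26.2 to 34.5) and 132 CPM in WT monocytes (121 to 144), a ratio of 0.228 (0.194 to 0.268). A Ms4a7 UMI was present in 8.46% of DGAT1-KO and 23.1% of WT monocytes thinned to 5000 UMIs, against 1.71% of DGAT1-KO and 4.57% of WT T cells. Apoe, the lipid-carrying apolipoprotein E (chromosome 7, 19696109 to 19699188), was at 621 CPM in DGAT1-KO monocytes (602 to 639) and 1186 CPM in WT monocytes (1153 to 1220). In C1q macrophages Apoe was at 2819 CPM in the DGAT1-KO library and 2343 CPM in the WT library, so the order of the libraries there was the reverse. Elsewhere Apoe was lower in the DGAT1-KO library too. Its log2 ratio was -0.43 in non-classical monocytes, -1.27 in Inhba phagocytes, -1.43 in T cells and -0.83 in free RNA.

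The lysosomal proteases of the list were lower together. Ctsl, which encodes cathepsin L (chromosome 13, 64359337 to 64370890), was at 202 CPM in DGAT1-KO monocytes (191 to 212) and 479 CPM in WT monocytes (458 to 500). Ctsb was at 941 CPM in DGAT1-KO and 1562 CPM in WT monocytes, and Ctsd at 299 and 488 CPM. Legumain, which activates cathepsins and is encoded by Lgmn on the MHC class II list, was at 455 CPM in DGAT1-KO and 822 CPM in WT monocytes.

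The tetraspanin gene Cd63 was at 55.8 CPM in DGAT1-KO and 152 CPM in WT monocytes, and Gpnmb, which both macrophages and melanoma cells make, at 91.1 and 194 CPM. Folr2, a folate receptor of resident macrophages, was at 4.004 CPM in DGAT1-KO and 22.1 CPM in WT monocytes, and Trem2, a lipid receptor, at 39.6 and 64.8 CPM. Maf, Adgre1 and Mertk were within 1.5-fold, with Mertk at 59.1 CPM in DGAT1-KO and 50.2 CPM in WT monocytes. Axl, a receptor for dying cells, was at 102 CPM in DGAT1-KO and 73.5 CPM in WT monocytes.

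The same list had medians of -0.23 in C1q macrophages, -0.26 in non-classical monocytes, -0.48 in Inhba phagocytes, -0.55 in T cells and -0.54 in free RNA, so a lower level was not particular to classical monocytes. With the estimated free RNA subtracted, the median in classical monocytes was -0.47 and 12 genes were at least 1.5-fold lower. Without the monocytes that held RNA of other classes the median was -0.55, with 13 lower and 2 higher. The part of RNA from other cells in this result was not tested beyond these values.

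**Figure D2:**
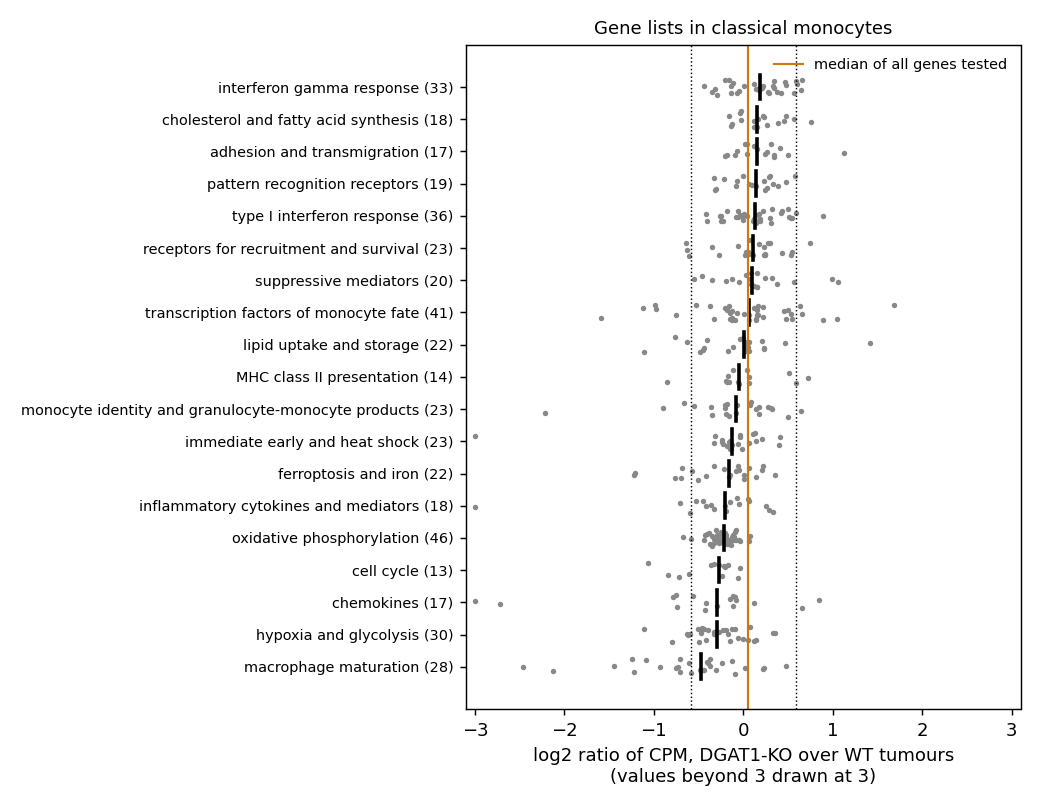
Log2 ratio of CPM, DGAT1-KO over WT (horizontal axis), for each member (grey points) of 19 gene lists with at least 100 UMIs, ordered by the list median (black bar); the number of members is in brackets. The orange line is the median of all 8157 genes and the dotted lines are 1.5-fold; macrophage maturation has the lowest median, -0.47, and interferon gamma response the highest, 0.19.

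Genes of iron storage and haem breakdown were lower too. Both ferritin chains were lower in DGAT1-KO monocytes, with the heavy chain gene Fth1 at 3964 CPM (3918 to 4011) and 6418 CPM in WT monocytes (6341 to 6496), and the light chain gene Ftl1 at 2818 CPM in DGAT1-KO and 4544 CPM in WT monocytes. Hmox1, haem oxygenase 1 (chromosome 8, 75093621 to 75100589), was at 214 CPM in DGAT1-KO monocytes (204 to 226) and 500 CPM in WT monocytes (478 to 522), a ratio of 0.429 (0.401 to 0.459). Gclm, a subunit of the enzyme that limits glutathione synthesis, was at 15.4 CPM in DGAT1-KO and 35.7 CPM in WT monocytes. Of 22 genes of ferroptosis and iron, 5 lay 1.5-fold or more below WT and 0 above, with a median of -0.15. Without the monocytes that held RNA of other classes the median was -0.21, with 4 lower. Hmox1 is on the macrophage maturation list as well. The ferroptosis and iron list had medians of -0.18 in C1q macrophages, -0.12 in non-classical monocytes and -0.12 in Inhba phagocytes. Its medians were -0.13 in T cells and -0.25 in free RNA, so a lower median was not particular to classical monocytes. Gpx4, which detoxifies lipid peroxides, was at 139 CPM in DGAT1-KO and 156 CPM in WT monocytes, and the cystine importer gene Slc7a11 at 16.01 and 15.29 CPM.

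Glycolytic and hypoxia-responsive genes were lower as well. Of 30 genes, 5 were lower by 1.5-fold or more and 0 higher, with a median of -0.30. Without the monocytes that held RNA of other classes 3 were lower, with a median of -0.36, and Gapdh (-0.54) and Pgk1 (-0.53) were short of 1.5-fold. Triosephosphate isomerase (Tpi1) was at 427 CPM in DGAT1-KO and 742 CPM in WT monocytes, Gapdh at 1454 and 2255 CPM and phosphoglycerate kinase (Pgk1) at 416 and 636 CPM. Bnip3, which marks mitochondria for removal, was at 103 CPM in DGAT1-KO and 156 CPM in WT monocytes. Hilpda, which blocks the lipase of lipid droplets under hypoxia, was at 63.2 CPM in DGAT1-KO monocytes (57.4 to 69.4) and 136 CPM in WT monocytes (125 to 148), a ratio of 0.464 (0.409 to 0.527). Hif1a, which encodes a hypoxia-regulated transcription factor, had the other order, with 409 CPM in DGAT1-KO and 298 CPM in WT monocytes. T cells had a median of -0.52 over the same list, C1q macrophages -0.11 and non-classical monocytes -0.48.

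Because hypoxia-inducible factor binds the core ACGTG, the 250 bases before the RefSeq start site (GRCm38.p6) were searched for it on both strands. It was present in 13 of 29 windows of the hypoxia and glycolysis list (44.8%), against 16.6% of all 32851 promoter windows. Of the 5 lower members, Pgk1 and Bnip3 held it and Tpi1, Gapdh and Hilpda did not, where 1 of the 2 windows listed for Hilpda was read. The windows of Pgk1 (chrX:106186850-106187099, plus strand), Bnip3 (chr7:138909507-138909756, minus strand) and Tpi1 (chr6:124814159-124814408, minus strand) are shown because they are lower members with and without the core, which is in capitals where found. They are written 5′ to 3′ on the gene's strand. The Bnip3 core is a palindrome, so both strands match at 1 place.
Pgk1: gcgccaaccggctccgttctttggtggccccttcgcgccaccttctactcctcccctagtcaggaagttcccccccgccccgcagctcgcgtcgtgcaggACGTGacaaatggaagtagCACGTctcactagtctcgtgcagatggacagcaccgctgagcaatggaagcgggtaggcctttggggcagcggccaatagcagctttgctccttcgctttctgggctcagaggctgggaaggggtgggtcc
Bnip3: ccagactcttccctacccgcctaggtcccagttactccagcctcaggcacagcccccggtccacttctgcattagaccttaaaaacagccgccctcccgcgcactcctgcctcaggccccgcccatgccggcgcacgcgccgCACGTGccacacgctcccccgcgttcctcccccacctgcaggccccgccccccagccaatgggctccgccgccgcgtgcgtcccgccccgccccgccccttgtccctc
Tpi1: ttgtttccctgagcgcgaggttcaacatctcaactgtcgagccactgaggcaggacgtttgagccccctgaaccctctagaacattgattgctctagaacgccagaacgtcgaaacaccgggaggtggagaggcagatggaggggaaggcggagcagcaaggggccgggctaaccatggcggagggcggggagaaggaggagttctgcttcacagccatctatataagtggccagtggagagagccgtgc
A match describes letters and not binding.

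The lipid uptake and storage list had a median of 0.01 over 22 genes, -0.16 centred on gene length and -0.05 without the monocytes that held RNA of other classes, with Olr1 higher by 1.5-fold or more and Plin2, Abca1 and Hilpda lower. Plin2, the main lipid droplet coat protein of macrophages, was at 350 CPM in DGAT1-KO monocytes (336 to 364) and 593 CPM in WT monocytes (569 to 617), a ratio of 0.590 (0.558 to 0.625). The scavenger receptor genes Cd36 and Msr1 were at 97.9 and 507 CPM in DGAT1-KO and at 94.7 and 485 CPM in WT monocytes. Of the transcription factor list, Pparg, a fatty acid sensor, was at 20.4 CPM in DGAT1-KO and 61.7 CPM in WT monocytes and Nr1h3, which encodes the oxysterol receptor LXR alpha, at 9.01 and 17.7 CPM. Of 18 genes of cholesterol and fatty acid synthesis, 1 was past 1.5-fold, Acaca (acetyl-CoA carboxylase 1), at 61.3 CPM in DGAT1-KO and 36.2 CPM in WT monocytes. Oxidative phosphorylation genes had a median of -0.21 over 46 genes, with Sdhd lower, and -0.07 once centred within classes of gene length.

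Of 33 interferon gamma response genes, 4 were higher by 1.5-fold or more and 0 lower, beside 6.3% and 3.89% of all genes. Their median was 0.19, beside 0.06 for all genes, and it depended on how cells were weighted. With equal weight for low, middle and high MHC class II it was 0.06, and after thinning 0.07. Centred on gene length, 2 of the 33 were higher. Without the monocytes that held RNA of other classes the median was 0.21, with 5 higher, and Wars (0.41) was short of 1.5-fold. The higher members were Cxcl9, Ciita, Wars and Serpina3g. Cxcl9, which attracts T cells through CXCR3 (chromosome 5, 92321347 to 92328079), was at 637 CPM in DGAT1-KO monocytes (619 to 656) and 403 CPM in WT monocytes (384 to 423), a ratio of 1.58 (1.49 to 1.67). Ciita, the master regulator of MHC class II transcription, was at 244 CPM in DGAT1-KO and 162 CPM in WT monocytes. Its targets had ratios below 1, with H2-Aa at 1762 CPM in DGAT1-KO and 1993 CPM in WT monocytes and Cd74 at 4018 and 4582 CPM. Of 36 type I interferon genes, 2 were higher (Ifi44 and Cmpk2) and 0 lower, with a median of 0.13, and 0.04 without the monocytes that held RNA of other classes, and the antiviral effector Isg15 was at 1174 CPM in DGAT1-KO and 1394 CPM in WT monocytes.

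Of 14 genes of MHC class II presentation, 2 were higher (Ciita and Cd80) and 1 lower (Lgmn), with a median of -0.05. Cd80, a ligand of CD28 and CTLA-4, was at 135 CPM in DGAT1-KO monocytes (127 to 144) and 81.8 CPM in WT monocytes (73.3 to 91.0), whereas Cd86 was at 386 and 433 CPM. Pdcd1lg2, which encodes the PD-1 ligand PD-L2, was at 48.2 CPM in DGAT1-KO and 24.3 CPM in WT monocytes, and Cd274, which encodes PD-L1, at 484 and 373 CPM. In C1q macrophages the log2 ratio was 1.10 for Cd80, 1.26 for Pdcd1lg2 and 0.28 for Cd274, so the order of the libraries was the same there. Of 20 genes of suppressive mediators, 2 were higher (Pdcd1lg2 and Slc7a2, which the rule used) and 0 lower. Arg1, which consumes arginine, was at 403 CPM in DGAT1-KO and 555 CPM in WT monocytes.

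Of 17 chemokines, 2 were past 1.5-fold above WT (Cxcl9 and Ccl24) and 5 past it below, with a median of -0.29. Centred on gene length, the median was -0.13, with 2 past 1.5-fold above and 2 below. Without the monocytes that held RNA of other classes 6 were past it below, with a median of -0.44. Ccl12, a CCR2 ligand of the mouse, was at 342 CPM in DGAT1-KO and 571 CPM in WT monocytes, while Ccl2, the main CCR2 ligand, was at 1735 and 1885 CPM. Cxcl10 was at 1641 CPM in DGAT1-KO and 1509 CPM in WT monocytes. Pf4, a platelet and macrophage chemokine, was at 65.2 CPM in DGAT1-KO and 430 CPM in WT monocytes, with 76.1% of its DGAT1-KO and 87.1% of its WT UMIs in 10 cells. Of 18 inflammatory mediators, 0 were higher and 3 lower (Nos2, Tnfsf9 and Saa3), with Saa3 in 9 DGAT1-KO and 11 WT cells. Leaving out the monocytes that held RNA of other classes gave 1 lower and 1 higher. Il1b was at 391.8 CPM in DGAT1-KO and 565.3 CPM in WT monocytes, although in C1q macrophages it was at 219 CPM in the DGAT1-KO library and 105 CPM in the WT library.

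Of 23 monocyte identity genes, 1 was higher and 3 were lower (Ly6a, S100a8 and Clec4d), with a median of -0.08, and 0.03 centred on gene length. Leaving out the monocytes that held RNA of other classes gave 0 higher and 3 lower. Of 23 receptors for recruitment and survival, 3 were lower (Cx3cr1, Cxcr4 and C5ar1) and 1 was higher, Tgfbr1, at 119 CPM in DGAT1-KO and 71.1 CPM in WT monocytes. Centred on gene length, 0 of these receptors were higher and 1 was lower. The growth factor receptor gene Csf1r was at 326 CPM in DGAT1-KO and 277 CPM in WT monocytes. Adhesion genes had a median of 0.16, with Jaml alone of 17 past 1.5-fold at 37.8 CPM in DGAT1-KO and 17.2 CPM in WT monocytes, and 0 of 19 pattern recognition receptors were past it. Of 23 immediate early and heat shock genes only Hspb1 was past it, below WT, with a list median of -0.13, and 0.08 centred on gene length. Of 41 transcription factors of monocyte fate, 5 were higher (Irf4, Batf2, Nfkb1, Rara and Tfec) and 5 lower, among them Pparg and Nr1h3. Rara, a retinoic acid receptor, was at 168 CPM in DGAT1-KO and 90.5 CPM in WT monocytes and Nfkb1 at 442 and 284 CPM, while Spi1 and Irf8 were at 521 and 276 CPM in DGAT1-KO and at 498 and 275 CPM in WT monocytes. Of 28 cell cycle genes 13 entered and 4 were lower (Birc5, Mcm6, Tyms and Stmn1), or 0 without the monocytes that held RNA of other classes, with Mki67 at 16.3 CPM in DGAT1-KO and 17.0 CPM in WT monocytes.

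The rule for named genes, which ranks by the bound of the ratio interval nearest to 1 and takes 15 genes each way, gave genes mostly outside these lists among the higher ones. Fgf13, an intracellular growth factor family member, led with 108 CPM in DGAT1-KO monocytes (100.3 to 116) and 15.5 CPM in WT monocytes (11.96 to 19.84), a ratio of 6.94 (5.37 to 9.10). After thinning, 13.1% of DGAT1-KO and 1.65% of WT monocytes held a Fgf13 UMI, while 20.6% of DGAT1-KO and 12.5% of WT T cells did, so a UMI of it does not mark monocytes. Its WT UMIs came from 15 cells, and free RNA accounted for 1.52% of its DGAT1-KO and 3.44% of its WT UMIs. Hs3st3b1, which modifies heparan sulfate, was at 43.2 CPM in DGAT1-KO and 8.25 CPM in WT monocytes. Nrg1, the ErbB ligand neuregulin 1 (chromosome 8, 31814551 to 32884029), was at 122 CPM in DGAT1-KO and 31.1 CPM in WT monocytes. Flt1, VEGF receptor 1 (chromosome 5, 147561604 to 147726011), was at 212 CPM in DGAT1-KO monocytes (202 to 223) and 65.8 CPM in WT monocytes (58.2 to 74.1), and 37.3% of DGAT1-KO and 20.8% of WT thinned monocytes held a UMI of it.

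Tfec, a transcription factor of the Mitf family made by myeloid cells, was at 114 CPM in DGAT1-KO and 35.7 CPM in WT monocytes, and Mitf itself at 418 and 377 CPM. Sulf2, a heparan sulfate sulfatase, was at 114 CPM in DGAT1-KO and 41.0 CPM in WT monocytes, and the coactivator gene Ppargc1b at 38.04 and 12.14 CPM. Fkbp5, a co-chaperone induced by glucocorticoids, was at 98.7 CPM in DGAT1-KO and 38.6 CPM in WT monocytes, Ccnd3 (cyclin D3) at 234 and 102 CPM and Vdr, the vitamin D receptor, at 48.9 and 19.9 CPM. Rab44, St7, Chn2, Rhoq and March3 completed the 15 higher genes. In C1q macrophages the log2 ratio was 2.94 for Fgf13, 3.08 for Hs3st3b1, 1.64 for Nrg1, 0.95 for Flt1 and 0.79 for Tfec, so these genes were higher in DGAT1-KO macrophages too.

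The 15 lower genes held Ms4a7, Pparg, Ctsl, Hilpda, Apoe and Lgmn from the lists above. Hdac9, a class IIa histone deacetylase, was at 93.1 CPM in DGAT1-KO and 221 CPM in WT monocytes. The receptor genes Clec4d, Cd93 and Stab1 were at 125, 40.9 and 57.1 CPM in DGAT1-KO and at 232, 81.3 and 109 CPM in WT monocytes. Ppp1r15a, which reverses the integrated stress response, was at 21.9 CPM in DGAT1-KO and 45.4 CPM in WT monocytes, and Cyb5a, an electron carrier for lipid desaturation, at 56.5 and 112 CPM, with 49.5% of its WT UMIs in 10 cells. Its log2 ratio was -0.24 without the monocytes that held RNA of other classes, and the other named genes stayed past 1.5-fold there. Tmem171, Tmem37 and Aph1c were the others. The log2 ratio in C1q macrophages was -0.82 for Ms4a7, -0.95 for Pparg, -0.38 for Ctsl, -0.11 for Hilpda and 0.27 for Apoe. Of the 15 lower genes only Apoe was higher in DGAT1-KO macrophages, so a lower level was mostly not particular to classical monocytes.

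**Figure D3:**
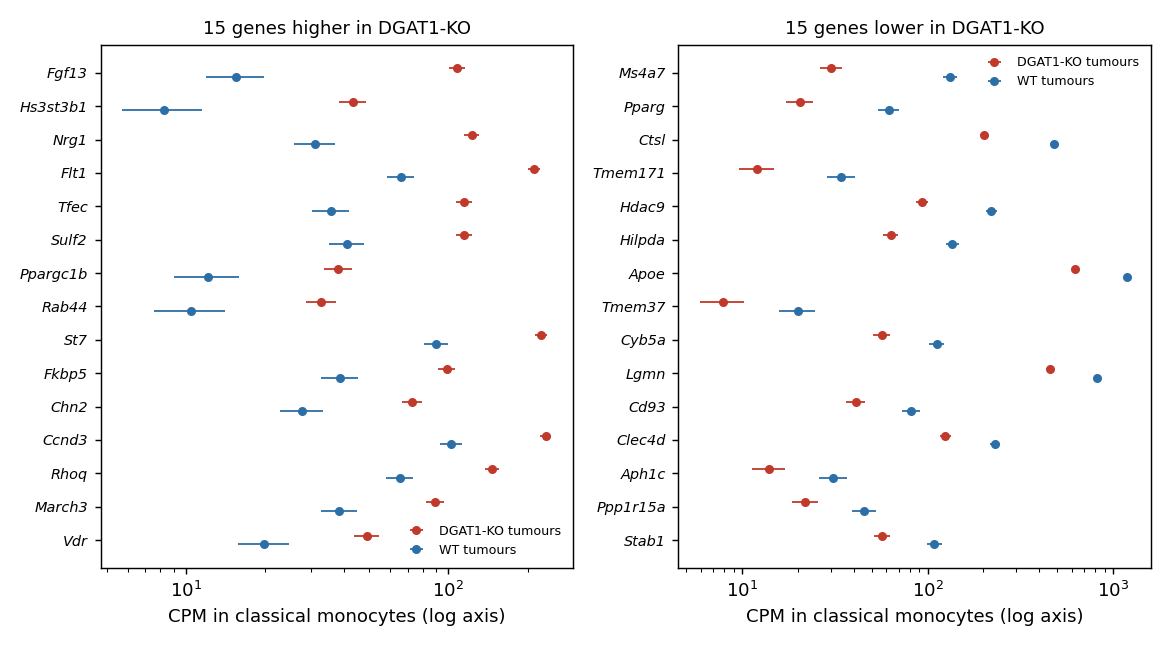
CPM in classical monocytes (horizontal log axis) of the 15 higher and 15 lower named genes; red points are DGAT1-KO monocytes (653 cells), blue points WT monocytes (325 cells), and bars are exact 95% Poisson intervals. Fgf13 has the widest gap of the higher genes, 108 against 15.5 CPM, and Ms4a7 of the lower genes, 30.2 against 132 CPM.

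Gene length moved with the ratio. Sorted by span into 10 classes of equal size, the shortest genes (up to 5147 bases) had a median log2 ratio of -0.23 in classical monocytes and the longest (from 125964 bases) 0.31. The run from shortest to longest was -0.20 to 0.31 in C1q macrophages, -0.26 to 0.28 in non-classical monocytes and -0.26 to 0.55 in free RNA, and T cells had the smallest gap of the 6, -0.10 to 0.20. Many higher named genes are long, such as Nrg1 (1069479 bases), Fgf13 (505927 bases) and Flt1 (164408 bases). Centred on the median of their length class, 279 genes were past 1.5-fold above WT and 333 below. Centred log2 ratios were 2.49 for Fgf13, 1.67 for Nrg1, 1.38 for Flt1 and 1.48 for Tfec. The centred list medians were -0.44 for macrophage maturation and -0.31 for hypoxia and glycolysis, with 11 genes of maturation and 3 of hypoxia still past 1.5-fold. The part of gene length in these ratios was not tested further. Malat1, a nuclear RNA, took 1.53% of DGAT1-KO and 1.55% of WT monocyte UMIs. Its share in the DGAT1-KO and WT libraries was 1.49% and 1.22% in C1q macrophages and 1.65% and 1.44% in non-classical monocytes. In Inhba phagocytes it was 2.06% and 1.77%, and in T cells 0.594% and 0.618%.

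**Figure D4:**
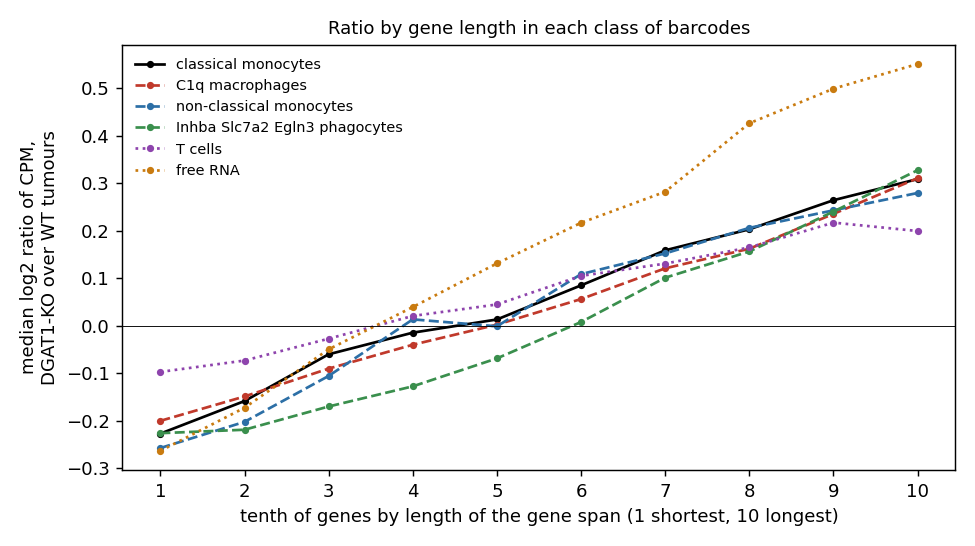
Median log2 ratio, DGAT1-KO over WT (vertical axis), in 10 classes of gene length from shortest to longest (horizontal axis) for classical monocytes (black), 4 other cell classes and free RNA. The lines end higher than they start, from -0.23 to 0.31 in classical monocytes.

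Monocytes varied among themselves in MHC class II. Summed MHC class II UMIs of cells thinned to 5000 UMIs were divided at 4 and 46 UMIs into low, middle and high groups, which held 34.3%, 33.7% and 32.0% of 603 DGAT1-KO monocytes and 34.3%, 31.02% and 34.7% of 303 WT monocytes. The libraries thus had like shares in each group. The median MHC class II count in these groups was 1, 21 and 90 UMIs in DGAT1-KO and 1.5, 15 and 104 UMIs in WT monocytes. Chil3, which the rule did not use, was at 820, 342 and 220 CPM in the low, middle and high DGAT1-KO groups and at 648, 398 and 107 CPM in the WT groups. Vcan and Ccr2 are summed in the rule, so a cell low in 1 of them had to pass through the others, and their levels are a description only. Vcan was at 1024, 490 and 210 CPM in the low, middle and high DGAT1-KO groups and at 781, 362 and 192 CPM in the WT groups. Ccr2 stayed between 765 and 874 CPM in DGAT1-KO and between 681 and 928 CPM in WT monocytes. Pdcd1lg2 had the other order, 17.4, 36.5 and 107 CPM in DGAT1-KO and 5.77, 27.7 and 36.2 CPM in WT monocytes. So did Mgl2, a lectin of antigen-presenting cells, at 6.76, 8.87 and 60.1 CPM in DGAT1-KO and 0.00, 6.38 and 43.8 CPM in WT monocytes. The WT values rest on 3, 13 and 19 UMIs of Pdcd1lg2 and 0, 3 and 23 of Mgl2. Of dendritic cell genes, Ccl17 had 1, 5 and 14 UMIs in DGAT1-KO and 0, 0 and 13 in WT monocytes. Zbtb46 had 1, 11 and 5 UMIs in DGAT1-KO and 0, 1 and 22 in WT monocytes. Flt3 had 8, 5 and 2 in DGAT1-KO and 4, 0 and 2 in WT monocytes. The part of dendritic cells in the high group was not tested.

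Where the gap between the libraries was widest differed between genes. Fth1, Hmox1, Apoe and Cxcl9 had it in the low group. Fth1 was at 2310, 4623 and 4606 CPM in the low, middle and high DGAT1-KO groups, against 6567, 6943 and 5505 CPM in the WT groups. Hmox1 was at 161, 281 and 230 CPM in DGAT1-KO and at 638, 502 and 204 CPM in WT monocytes, and in the high group the interval of its ratio spanned 1 (0.892 to 1.44). Apoe was at 529, 526 and 737 CPM in DGAT1-KO and at 1513, 1240 and 950 CPM in WT monocytes. Cxcl9 was at 650, 755 and 682 CPM in DGAT1-KO and at 210, 566 and 385 CPM in WT monocytes. Hilpda, Hdac9, Gpnmb and Il1b had their widest gap in the high group. Hilpda had log2 ratios of -0.87, -0.65 and -1.84 in the low, middle and high groups, Hdac9 -1.02, -0.88 and -1.97, Gpnmb -1.30, -1.11 and -2.75 and Il1b -0.38, 0.17 and -0.73. The median of macrophage maturation was -0.62, -0.45 and -0.30 in the low, middle and high groups, and that of hypoxia and glycolysis -0.61, -0.30 and -0.19. Type I interferon genes had medians of 0.29, 0.01 and -0.25, so their order between the libraries turned with MHC class II. These differences between groups of cells within 1 library per condition were not tested.

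**Figure D5:**
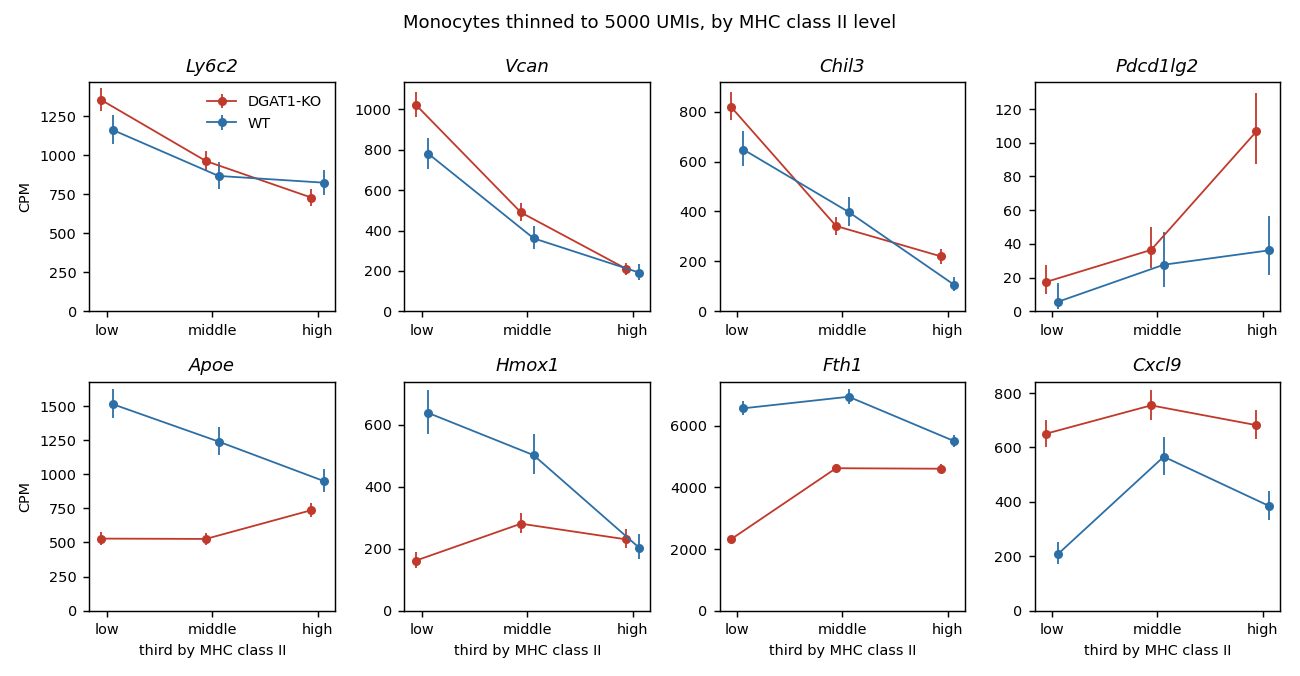
CPM (vertical axes, from 0) of 8 genes in monocytes thinned to 5000 UMIs, in groups of low, middle and high MHC class II (horizontal axes); red is DGAT1-KO (207, 203 and 193 cells), blue is WT (104, 94 and 105 cells), and bars are exact 95% Poisson intervals. Vcan and Chil3 are lower where MHC class II is higher, and Fth1, Hmox1 and Apoe differ most between the libraries in the low group.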

How the data were processed

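Per the file headers, the deposited matrices hold raw UMI counts by gene and barcode, not normalized by the authors, for 1 library of DGAT1-KO and 1 of WT tumours. Cell Ranger 7.2.0 wrote them, per the file headers, and the build was mm10, per the submitters' processing notes. Neither the annotation nor the filters used are stated in the labels. Gene spans were taken from GENCODE M21, and promoter windows from RefSeq (GRCm38.p6).

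UMIs were summed over the monocytes of a library and divided by their total into CPM, with exact Poisson intervals, exact conditional intervals for ratios and exact binomial (Clopper-Pearson) intervals for shares, all at 95%. A few cells can hold most UMIs of 1 gene, so the intervals are too narrow for cell-to-cell spread, and they hold no spread between tumours. Genes with at least 100 UMIs over both libraries entered, and 1.5-fold was the size used to count them. Cells were thinned to 5000 UMIs where shares of cells were compared, which left out 50 DGAT1-KO and 22 WT monocytes. Free RNA was estimated from macrophage genes in T cells. Named genes exclude mitochondrial, ribosomal, haemoglobin, immunoglobulin, T cell receptor, Gm and Rik genes, Xist, Y-linked genes and genes of the rule, and genes with 25% or more of UMIs from free RNA or 50% or more in 10 cells of the higher library. From 442 higher and 181 lower genes the 15 with the ratio bound farthest from 1 were taken each way. Scrublet (scanpy 1.11.5) marked 2.98% of DGAT1-KO and 1.97% of WT barcodes as doublets, among them 3 DGAT1-KO and 2 WT monocytes, which were kept in the values above and left out in an alternative. Python 3.11.15, numpy 2.4.6, scipy 1.17.1 and pandas 2.3.3 were used, and the interval computation was tested on simulated data. The number of columns of other samples left unused was 0. The members and gene lists were chosen with earlier results of these data known. Alternatives changed the depth, mitochondrial, doublet, thinning, scaling, filter, weighting and free RNA choices, and 2 more, on gene length and on RNA of other classes, as well as the groups by C1q, were chosen after seeing the data.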

Additional observations from a re-analysis of the deposited data

Results flagged for a closer look

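For 5 genes the order of the libraries in classical monocytes was the reverse of that in C1q macrophages, each past 1.5-fold. The difference between the cell classes was not tested, since there is 1 library per group. Cx3cr1, the fractalkine receptor gene, had a log2 ratio of -0.61 in monocytes and 0.97 in macrophages, but 0.12 in monocytes without the 10 cells of each library that held most of its UMIs. Cxcl3, a neutrophil attractant, had -0.75 and 1.56. Ppbp, a platelet chemokine gene, had -6.73 and 3.03, with 3 DGAT1-KO UMIs in 3 cells and 188 WT UMIs in 4 cells. Serpina3g had 0.64 and -0.60. Ptgds, a gene of the melanoma list, had 0.69 and -1.36, with 92.4% of its DGAT1-KO and 61.1% of its WT monocyte UMIs in 10 cells, and its sign in monocytes turned in 4 alternatives (-2.75 to -0.71).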

How the results depend on the processing

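The share ratio of classical monocytes (1.61) ran from 1.56 to 1.81 and the ratio of monocytes per C1q macrophage (2.90) from 2.90 to 2.99 over the alternatives. None of these alternatives changed a limit of the rule. Without the C1q limit 943 of 11238 DGAT1-KO and 594 of 8978 WT barcodes met it, a smaller difference in share. The numbers of genes past 1.5-fold, 514 higher and 317 lower, moved more over the alternatives. They were 1778 higher and 2550 lower with at least 1 UMI in each library, and 245 higher and 88 lower with at least 400 UMIs. Leaving out the 10 cells with most UMIs of each gene gave 1256 higher and 74 lower, and by its construction this takes 10 of 325 WT but 10 of 653 DGAT1-KO cells. Thinning before the rule gave 204 lower, thinning the monocytes 182 lower, and centring on gene length 279 higher. The genes counted changed too. Over the alternatives, 234 to 513 of the 514 higher genes and 74 to 317 of the 317 lower genes were counted again. Thinning before the rule kept 266 and 113 of them, and equal weight by MHC class II 361 and 223. Thinning the monocytes kept 245 and 94, with 5777 genes compared in place of 8157. The median of macrophage maturation stayed below 0 in 14 of 14 alternatives (-0.57 to -0.32), and that of hypoxia and glycolysis in 14 of 14 (-0.38 to -0.21). The median of ferroptosis and iron ran from -0.35 to -0.08, with 2 to 8 genes lower. Chemokines ran from -0.44 to 0.03, inflammatory mediators from -0.32 to 0.21, and cell cycle had 0 to 10 genes lower. Lipid uptake and storage kept its sign in 4 of 14. All 15 higher named genes stayed past 1.5-fold in every alternative that gave a value, as did the lower ones except Cyb5a (8 of 14) and Stab1 (13 of 14).

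Log2 ratios changed sign for Ptgds (-2.75 with at most 5% mitochondrial UMIs, -2.05 with thinning before the rule, -0.87 as a mean over cells, -0.71 with equal weight by MHC class II). Thinning before the rule gave Cyb5a 0.040, Ccl24 -0.44, Gzma -0.096, Prf1 -0.46 and Ccl17 1.80. Free RNA subtraction gave Ccl8 0.38. Equal weight by MHC class II gave S100a8 0.33, Mcm6 0.098 and Tyms 0.25, leaving out 10 cells Cx3cr1 0.12, and leaving out cells with RNA of other classes Mcm6 0.12. The cause was not tested. Of 1364 values over 107 genes, 1093 kept their size, 256 moved and 15 changed sign. No paired analysis was possible because each group has 1 library. Depth limits low genes: a count of 0 allows up to 3 UMIs, and genes under 100 UMIs were not compared.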
